A study of Homo sapiens with 74 samples.

Results

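The data described here are the 2 CTCF Cut&Run libraries of a survey of zinc-finger proteins (ZFPs) and the 809 genomic regions that were called in both of them. In Cut&Run an antibody tethers a nuclease to chromatin next to the protein it recognises, and the short fragments released by cutting are sequenced. HEK293T cells, an immortal human embryonic kidney line, received a Lipofectamine-delivered plasmid for CTCF with a V5 tag at its C-terminus, driven by the EF1-alpha promoter, and were taken for Cut&Run without crosslinking 48 h later. A replicate was 1 well of cells, and the mock IP control was made with the same antibody from cells given no plasmid. The untagged CTCF that the cells make themselves was present in every sample, and the tagged protein came from a plasmid, and its level beside the cells' own CTCF was not measured here. The authors called peaks in each library against a mock IP of the same batch, and 35 other ZFPs that were tagged and processed in the same way gave 2 lists each. All 72 lists held 92122 peaks.

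The CTCF lists held 3198 peaks in replicate 1 and 1740 in replicate 2, against 15 to 8702 in the lists of the other ZFPs. Peaks that overlapped by at least 1 bp were merged into 4100 regions, of which 820 had a peak in both replicates. Of these, 10 lay on exons of CTCF and 1 on exons of EEF1A1, whose promoter is the EF1-alpha promoter of the plasmid. Removing them left the 809 shared regions. The fold of a peak, taken from the deposited lists, is the ratio of library signal to mock IP signal at its summit. Of the regions on CTCF exons, 9 had folds of at least 100 in both replicates and were called for no other ZFP, which bears out the label of these libraries. The other one covered the CTCF promoter, with folds of 12.4 and 5.88, and was also called for 11 other ZFPs. The EEF1A1 region had folds of 2734 and 3317 and was called for all 35 other ZFPs. Among those, the libraries labelled U2AF1 had no such signal on the exons of U2AF1. The hg38 assembly holds a near-identical copy of that gene, and its effect on the placing of reads was not tested. The label of these libraries is therefore not settled here. Without them the difference in the core word described below was 3.51 in place of 3.501 percentage points over all peaks, and 6.69 in both cases beyond 1 kb from a start site. The share of the 809 regions called for another ZFP was 83.1% in place of 83.2%.

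CTCF is the best known architectural protein of vertebrate chromatin. Its zinc fingers read a long, directional DNA site, and where the cohesin ring meets a bound CTCF molecule in the right orientation it stops extruding, so that pairs of CTCF sites become the anchors of chromatin loops. CTCF sites lie at domain borders, in insulators such as the one between IGF2 and H19, and at many promoters. The most conserved stretch of its site is a GC-rich core, which was searched here as a word of 12 letters on both strands. The loose form of the word was CCANNAGNNGGC. The strict form limits the 4 free letters to C or G, then C or T, then A or G, then G or T, and every strict match is also a loose match. A region was said to hold the word when it lay within 100 bp of the summit on either side, unless a wider limit is given. The word could therefore lie outside the edges of a region, as at CBL below, where the region starts at chr11:119205974.

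The shared regions with the strict word show what these matches look like. The following are examples from promoters, in order of fold, read from hg38 in the direction of the word, with the core in capitals and 9 bases on each side.
NFE2L2 (chr2:177263643-177263672, plus strand): cggtgagcgCCACCAGGGGGCaccgcgtcc
MRPL38 (chr17:75905140-75905169, plus strand): catggctggCCACCAGGGGGCggcacagac
EARS2 and UBFD1 (chr16:23557495-23557524, plus strand): ccgcactcgCCACCAGGGGGCagaggccag
CBL (chr11:119205945-119205974, plus strand): cccgtttctCCAGCAGAGGGCgcaggccca
FIS1 (chr7:101244366-101244395, minus strand): ctggagctgCCACCAGGTGGCatctccgct

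The next are examples from introns and intergenic DNA, with 20 bases on each side.
AKR1E2 intron (chr10:4815641-4815692, plus strand): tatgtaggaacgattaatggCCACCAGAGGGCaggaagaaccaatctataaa
DNAJC22, upstream (chr12:49342574-49342625, minus strand): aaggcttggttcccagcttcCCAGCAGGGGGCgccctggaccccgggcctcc
NGFR-AS1 intron (chr17:49570159-49570210, plus strand): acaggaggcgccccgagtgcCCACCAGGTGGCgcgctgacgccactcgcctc
BCL7C, nearby (chr16:30814424-30814475, minus strand): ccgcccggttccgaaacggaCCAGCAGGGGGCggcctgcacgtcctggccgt
TUBB8B, nearby (chr18:97063-97114, minus strand): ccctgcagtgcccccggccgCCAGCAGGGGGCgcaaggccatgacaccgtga
ERCC1 intron (chr19:45439603-45439654, plus strand): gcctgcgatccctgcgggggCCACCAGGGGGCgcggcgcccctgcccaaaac
SMUG1, nearby (chr12:54214855-54214906, plus strand): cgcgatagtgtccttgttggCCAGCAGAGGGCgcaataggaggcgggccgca

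The word was more frequent in both CTCF libraries than in any other library. It lay near the summit of 3.25% of the peaks in CTCF replicate 1 and of 4.02% in replicate 2, whereas no list of another ZFP exceeded 0.657%. Away from promoters the shares were higher still. Of the CTCF peaks over 1 kb from a transcription start site (TSS), 6.26% in replicate 1 and 7.32% in replicate 2 held the word, against at most 0.655% in any other list. CTCF thus averaged 3.64% ± 0.545 (SD, n = 2 lists) over all peaks, where the means of the 35 other ZFPs ranged from 0 to 0.556%. An exact two-sided permutation test, in which each of the 36 ZFPs in turn took the place of CTCF, gave p = 0.0278 for both measures, the smallest value that 36 ZFPs allow. With Benjamini-Hochberg adjustment over the 5 measures tested this became 0.0694, so the difference did not pass a threshold of 0.05 although both CTCF lists lay above all 70 others.

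**Figure D1:**
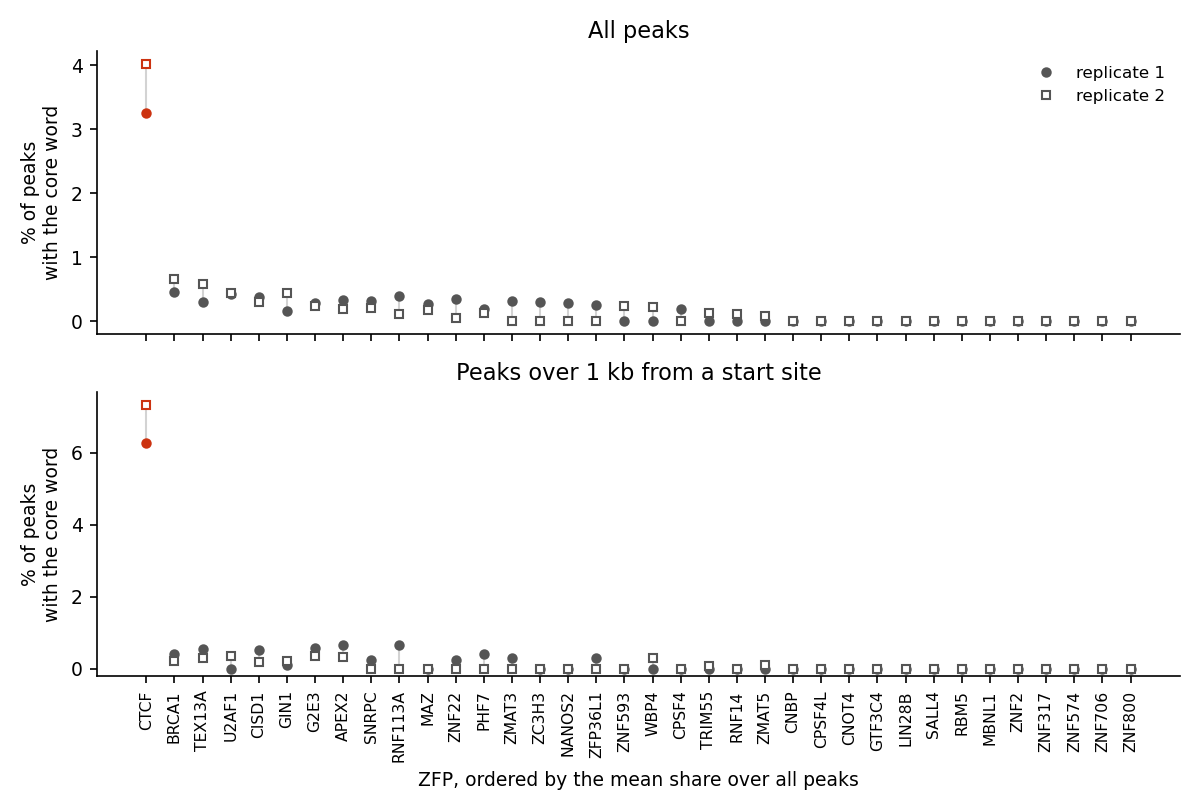
Share of peaks (percent, vertical axis) with the strict CTCF core word within 100 bp of the summit, for the 72 lists; filled circles are replicate 1, open squares are replicate 2, CTCF is in red, and grey lines join the lists of a ZFP. The CTCF lists stand at 3.25% and 4.02% over all peaks and at 6.26% and 7.32% over 1 kb from a TSS, and no other list exceeds 0.657%.

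The letters that the loose word leaves free also differed. Among the 73 loose matches of the shared regions, 49.3% (exact 95% interval 37.4 to 61.3) were strict. Loose matches in CTCF regions of a single replicate were strict in 45.8%, and those in 33092 regions of other ZFPs without a CTCF peak in 12.8% (10.0 to 16.0). Each CTCF list showed this on its own, with 47.2% in replicate 1 and 46.9% in replicate 2. The base just after the word, position 13 counted from the first base of the core, is part of neither form. It was A or G in 86.3% of the matches in shared regions and in 54.4% of those in regions of other ZFPs. The most frequent strict cores in the shared regions were CCAGCAGGGGGC with 10 occurrences and CCACCAGGGGGC with 8, each in 8 regions, of the 7 that occurred. The region near TUBB8B held 3 of the 10. All these intervals cover counting error only.

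The word was not centred on the summits. In the shared regions, core words occurred at 24.7 per 100 kb of sequence within 50 bp of the summit and at 26.0 between 50 and 100 bp. The highest density, 40.8, lay between 100 and 150 bp, and it was 27.2 between 150 and 200 bp. Beyond that it fell to 12.4 between 200 and 300 bp and to 1.85 between 500 and 1000 bp. The highest value rests on 33 words, and the places differed. At promoters the density was highest between 100 and 150 bp, at 33.8, and was 10.1 between 150 and 200 bp. Outside promoters it was 55.3 within 50 bp and highest between 150 and 200 bp, at 73.7. In CTCF regions of a single replicate the density was 18.9 both within 50 bp and between 100 and 150 bp, and in regions of other ZFPs it stayed between 0.653 and 2.02 at all distances. With the wider limit of 200 bp, chosen after these distances were seen, 80 of the 809 shared regions (9.89%, exact 95% interval 7.92 to 12.2) held the strict word, in place of 32 (3.96%, 2.72 to 5.54). Over whole lists, the wider limit gave 6.85% and 8.22% for CTCF and at most 0.977% for any other list.

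**Figure D2:**
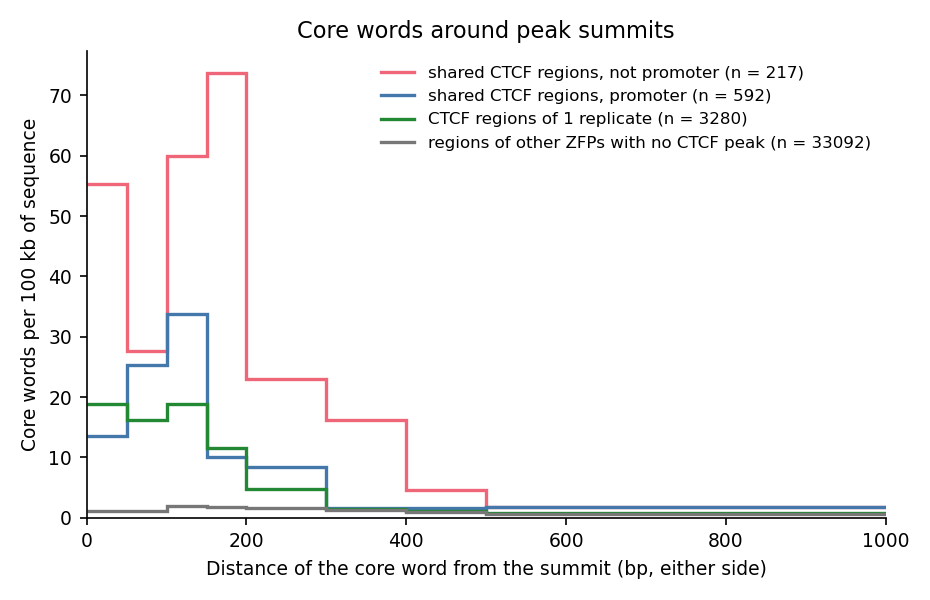
Core words per 100 kb of sequence (vertical axis) by distance from the peak summit in bp, both sides together (horizontal axis), for shared CTCF regions in and outside promoters, CTCF regions of 1 replicate, and regions of other ZFPs with no CTCF peak. Density is high up to about 150 bp in shared promoter regions and up to about 200 bp in the other CTCF sets. It is lower beyond 300 bp in all of them, and in regions of other ZFPs it lies between 0.653 and 2.02 throughout.

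Most shared regions were at promoters. A region counted as promoter when its edge lay within 1 kb of a TSS of any gene, and the rest were placed by their summit. Of the 809 regions, 592 (73.2%) were promoter, 123 (15.2%) intergenic, 74 (9.15%) intronic and 20 (2.47%) exonic. Over whole lists, 70.5% and 70.2% of CTCF peaks lay within 1 kb of a TSS, which ranked CTCF 4th of 36 ZFPs behind a highest mean of 74.5% for APEX2, an endonuclease of DNA repair. The mean over the other ZFPs was 32.3% ± 22.6 (SD, n = 35), and the difference of 38.1 percentage points did not pass the exact permutation test (p = 0.111, adjusted p = 0.185). The strict word within 200 bp of the summit was less frequent at promoters than elsewhere. It was found in 45 of 592 promoter regions (7.60%, 5.598 to 10.04) and in 35 of the 217 others (16.1%, 11.5 to 21.7). Each list showed the same order, with 5.02% within 1 kb of a TSS and 11.3% beyond in replicate 1, and 5.11% and 15.7% in replicate 2.

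Folds of the shared regions lay in a narrow range. The median fold of the shared regions was 6.02 in replicate 1 and 5.86 in replicate 2, and in 670 of the 809 regions the folds were within 1.5 times of each other. Since a region had to be called in both replicates to be counted, and most folds lay close together, this share is no measure of how well the replicates agree. Only 27 regions had folds of at least 10 in both. Across regions the log2 folds of the replicates correlated with Pearson's r of 0.761 and a Spearman coefficient of 0.585, as a description, since regions of 1 library share that library and were selected for a peak in both. The agreement of the lists themselves was partial. Of the shorter CTCF list, 47.9% was found in the other one, against a mean of 46.0% ± 19.5 for the other ZFPs (exact permutation p = 0.972). Of the longer list, 25.8% was found in the shorter. The regions called in a single replicate were much like the shared ones in place. Promoter regions made up 69.9% of the 2374 found in replicate 1 alone and 68.0% of the 906 found in replicate 2 alone. The word within 200 bp was found in 5.69% and 7.40% of them. They were less often called for another ZFP, at 64.2% and 63.0%, against 83.2% of the shared regions.

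**Figure D3:**
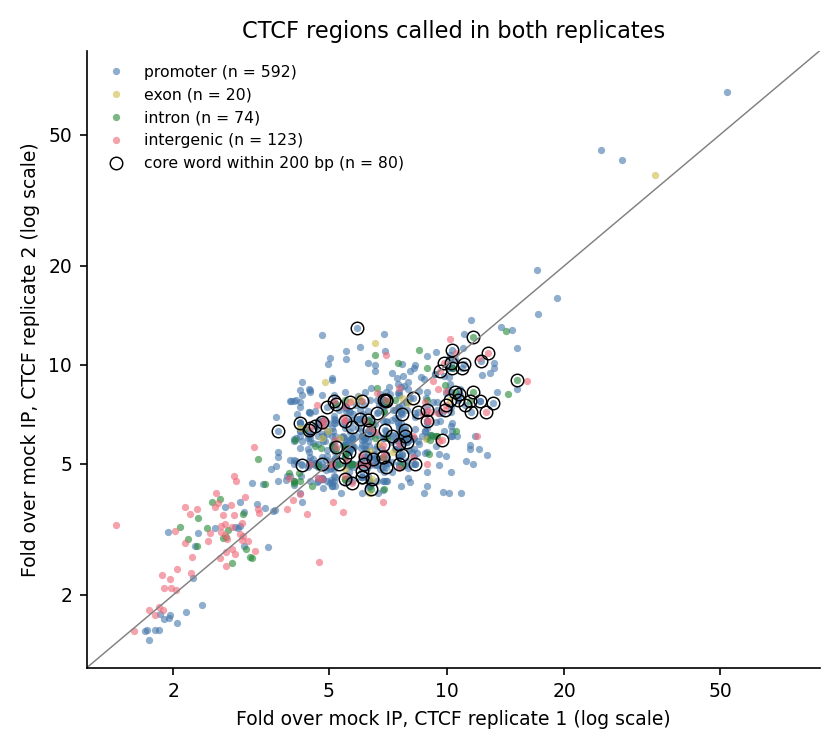
Fold over mock IP of each of the 809 shared CTCF regions in replicate 1 (horizontal) and replicate 2 (vertical), both on log axes, coloured by place, with the line of equal folds in grey; black rings mark the 80 regions with the strict core word within 200 bp of the summit. The quartiles of the fold are 4.78 and 7.65 in replicate 1 and 4.88 and 7.19 in replicate 2, and 1 of the 120 regions with a lower fold under 4 carries a ring.

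The 4 regions with the highest folds resembled the plasmid. EEF1A1P5, EEF1A1P6 and EEF1A1P13 are processed copies of EEF1A1. The folds were 52.2 and 67.5 at EEF1A1P5, 28.2 and 42.0 at EEF1A1P6, and 24.9 and 44.9 at EEF1A1P13, and each shared an identical stretch of 35 bp with the EEF1A1 region. These 3 regions were also called for RBM5 and RNF113A. The 4th lay on an exon of ZNF775, a zinc-finger gene, with folds of 34.0 and 37.8, and a stretch of 70 bp there was 84.3% identical to a CTCF exon. It was called for no other ZFP. Reads of the plasmid are not balanced by the un-transfected control, and their part in these 4 folds was not tested.

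After these, ranked by the lower fold of the replicates, the leading promoter regions of protein-coding genes belonged to genes of varied function. The first covered the TSS of PDE4A, a cAMP phosphodiesterase, at chr19:10416484-10417067, with folds of 17.0 and 19.4. RPL26, a protein of the large ribosomal subunit, followed with 19.2 and 16.0, and CARM1, an arginine methyltransferase that modifies histones and coactivators, with 17.2 and 14.3. TESK1, a protein kinase, had 13.7 and 12.99. The shared promoter of FRS3, an adaptor of FGF receptors, and TOMM6, of the mitochondrial import pore, had 14.7 and 12.8. CASTOR1, the arginine sensor of the mTORC1 pathway, had 11.5 and 13.7, SH3GLB1, which bends membranes, had 15.1 and 11.3, and WBP2, a transcriptional coactivator, had 11.1 and 12.4. None of these 8 held the strict or the loose word within 100 bp of the summit, and all 8 were also called for at least 1 other ZFP, from 1 at CASTOR1 to 13 at CARM1.

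The promoters with the strict word within 100 bp were 18. NFE2L2, the master regulator of the antioxidant response, had the highest lower fold of the replicates among them, with 10.96 and 9.77, and was also called for 18 other ZFPs. MRPL38, of the mitochondrial ribosome, had 12.2 and 7.74. The divergent promoter of EARS2, a mitochondrial glutamyl-tRNA synthetase, and UBFD1 had 7.68 and 7.07, and CBL, a ubiquitin ligase that turns off receptor tyrosine kinases, had 8.93 and 6.75. FIS1, a factor of mitochondrial fission, had 7.23 and 6.08. Others of this kind were at the start sites of the non-coding gene ENSG00000230107, with folds of 6.33 and 6.32, and the pseudogene MAP1LC3BP1, with 7.83 and 6.07.

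Start sites of more than 1 protein-coding gene lay within 1 kb of 111 of the 592 promoter regions, and 83 had no protein-coding TSS. CTCF summits tended to sit upstream of the TSS. In the 509 shared promoter regions of protein-coding genes the summit was upstream of the nearest protein-coding TSS in 338 (66.4%), with a median position of -60 bp. Over all CTCF peaks within 1 kb of a protein-coding TSS, 60.8% in replicate 1 and 63.2% in replicate 2 were upstream. This ranked CTCF first of 36 ZFPs, ahead of ZNF593 with 58.2%, and the median of the other ZFPs was 45.5%. By median position CTCF was not first, with -38 bp for both lists pooled, against -38.5 bp for ZNF593. ZNF706, with 40 such peaks, had -58.5 bp, and the median over the other ZFPs was 12.5 bp. The GC box GGGCGG, the site of SP and KLF factors, lay in 60.7% of these windows in replicate 1 and 64.1% in replicate 2. The 35 other ZFPs, each with both lists pooled, had a median of 44.5% and a highest value of 61.0% for G2E3, so that CTCF stood above G2E3 when pooled (61.9%) and in replicate 2 but not in replicate 1. The CCAAT box, the site of NF-Y, was in 25.4% and 28.4%, which ranked CTCF 5th. No test was run on these ranks, which were looked up after the values were known.

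In the shared promoter regions the GC box was found in 63.3% and the CCAAT box in 30.9% of the windows within 100 bp of the summit. In 14958 promoter regions of other ZFPs with no CTCF peak these words were found in 46.2% and 14.5%, at a nearly equal GC content of 66.4%, against 67.1% in the CTCF windows. Both sets of windows follow the summits, which in the CTCF lists lay further upstream than in those of most other ZFPs. The part of this position in the shares was not tested. In windows of the same length, from 151 bp before to 50 bp after the TSS of 21613 protein-coding genes (RefSeq, GRCh38.p14), the GC box was in 51.1%, the CCAAT box in 27.4% and the strict core word in 0.333%. The GC box can overlap the core word. The strict core word itself was in 3.04% of the shared CTCF promoters and in 0.147% of the promoter regions of other ZFPs.

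Among the intronic regions the one with the highest lower fold was in RIPOR1, with 14.1 and 12.7. AKR1E2, an aldo-keto reductase gene, came next with 11.7 and 12.1 at chr10:4815399-4816017. This region had the strict word within 100 bp of its summit, 3 such words within 200 bp, and no peak of any other ZFP. RRP12, a ribosome biogenesis factor, had 10.4 and 9.77. NR4A1, an immediate early nuclear receptor, had 15.1 and 9.003. A region in an intron of IGF2, the imprinted growth factor whose enhancer contacts are gated by CTCF, had 8.93 and 9.75 at chr11:2151648-2152376 and was shared with ZNF22 alone. It did not hold the strict or loose word within 100 bp of the summit. DANT2, a non-coding transcript of the DXZ4 macrosatellite on the X chromosome, had 9.89 and 8.65 and was called for 18 other ZFPs.

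Intergenic regions with high folds lay near DNAJC22, with 12.8 and 10.9 and the strict word, near GOLGA6B with 10.6 and 10.9, near DEGS2 with 10.2 and 12.0, near PSD2 with 9.82 and 10.1, and near TBC1D2B with 9.61 and 9.56. The distances to the nearest protein-coding TSS ranged from 3953 bp at DNAJC22 to 88535 bp at TBC1D2B. The regions near PSD2 and TBC1D2B were called for no other ZFP. They had the strict word within 200 bp of the summit but not within 100 bp.

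Part of the low-fold regions lay on DNA that is grouped here as repeated copies. There were 33 regions on the ribosomal DNA of chromosome 21, 40 on unplaced or unlocalized contigs, 12 on mitochondrial DNA and 10 more with satellite-like sequence. These 95 regions are the only ones counted here as repeated copies. They were grouped by place or sequence, and their copy number was not measured. Other repeated DNA, such as the DXZ4 region at DANT2 described above, stayed among the other 714. The lower fold of the 95 had a median of 2.59, against 5.43 in the other 714 regions. A median of 21 other ZFPs had a peak at each of them, against 3 elsewhere. None of the 95 held the strict word within 200 bp (exact 95% interval 0 to 3.81%), whereas 80 of the other 714 did (11.2%, 8.99 to 13.8). Reads from identical copies cannot be assigned to 1 copy, and how far this affects the positions of these 95 regions was not tested. Without them, promoter regions made up 79.0%, intergenic regions 9.80% and introns 8.40%, and the strict word lay within 200 bp of the summit in 30.0% of intergenic regions (19.6 to 42.1), 12 of 60 intronic regions (10.8 to 32.3%) and 7.98% of promoter regions (5.88 to 10.5). The 6 shared regions called for all 35 other ZFPs were among the 95. They were intergenic and satellite-like, on chromosomes 1, 4, 5 and 17, with folds from 1.55 to 2.09.

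Sharing with the other ZFPs was common. A peak of at least 1 other ZFP overlapped 673 of the 809 regions (83.2%), and 136 (16.8%) were called for CTCF alone. The most frequent partners were APEX2 at 489 regions (60.4%), ZNF22 at 475 (58.7%), CISD1, an iron-sulfur protein of mitochondria, at 465 (57.5%), PHF7, a histone ubiquitin ligase, at 406 (50.2%), G2E3 at 380 (47.0%) and GIN1 at 362 (44.7%). These have the longest lists. Over the 35 ZFPs, the share of CTCF regions correlated with the log10 number of peaks with Pearson's r of 0.860 and a Spearman coefficient of 0.642. This is a description, and the part of list length in the sharing was not tested. Counted by regions called in both replicates of the other ZFP, APEX2 covered 35.97% of the CTCF regions, and the CTCF regions overlapped 17.4% of its 1371. For ZNF22 the shares were 27.1% of the CTCF regions and 19.1% of its 852. For MAZ, a zinc-finger protein known to work with CTCF at loop borders, they were 7.42% and 24.6% of its 228. MAZ did not stand out by either share. The CTCF regions overlapped 39.4% of the 142 regions of RNF113A, 35.3% of the 184 of SNRPC and 81.25% of the 32 of MBNL1. For SNRPC and MBNL1 the authors list no number of Cut&Run target genes. All these overlaps include the regions of repeated copies, which were called for many ZFPs. BRCA1 gave 5.81% and 16.4% of its 281. At the other end ZNF317 covered 1.48% of the CTCF regions, and ZC3H3, TRIM55 and ZMAT5, which had at most 2 regions in both replicates, covered none.

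**Figure D4:**
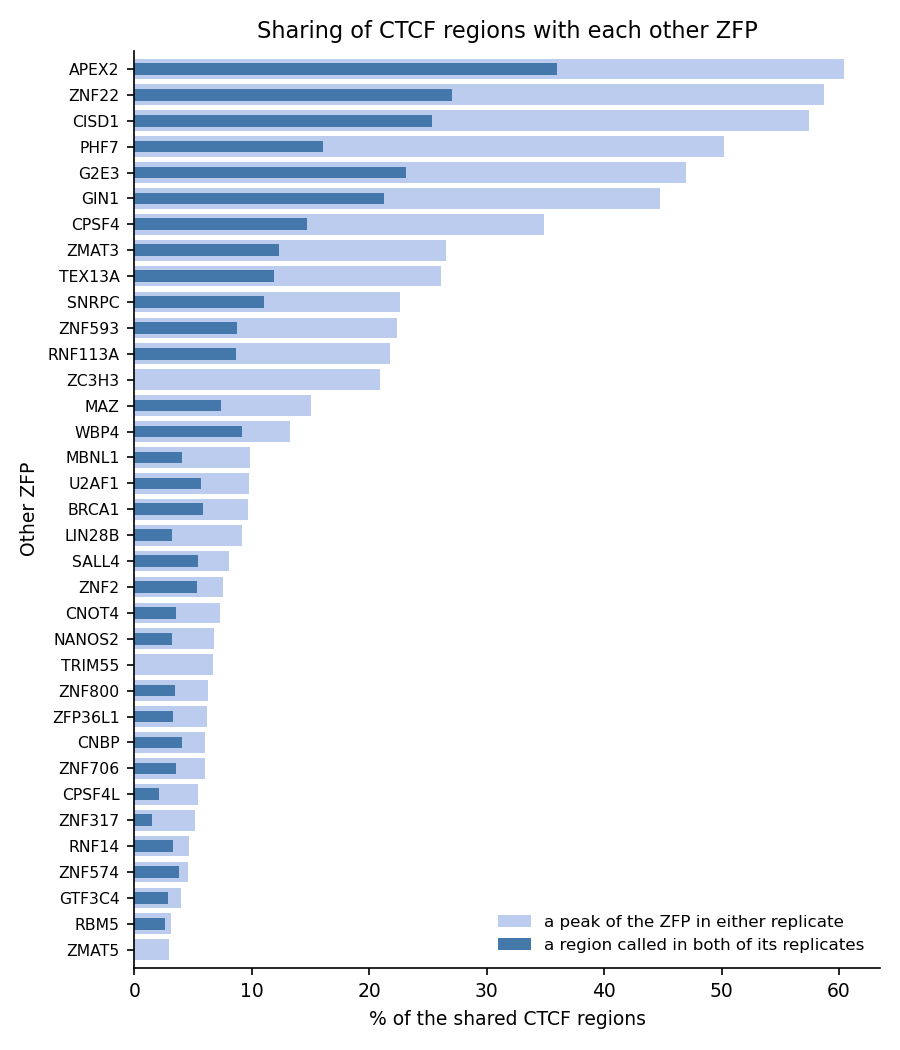
Share of the 809 shared CTCF regions (percent, horizontal axis) that overlap a peak of each other ZFP in either replicate (light bars) or a region called in both replicates of that ZFP (dark bars), ordered by the light bars. APEX2, ZNF22, CISD1 and PHF7 overlap over 50% of the regions by the first count, and APEX2 leads by the second with 35.97%.

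In whole lists, 31.3% of the peaks in CTCF replicate 1 and 27.9% in replicate 2 overlapped no peak of another ZFP. The mean of the other ZFPs was 19.2% ± 10.6 (SD, n = 35), and the difference did not pass the exact permutation test (p = 0.306, adjusted p = 0.382). The strict word was most frequent in regions called for CTCF alone. It lay within 200 bp of the summit in 38 of the 136 regions called for CTCF alone (27.9%, 20.6 to 36.3), in 13.4% of those shared with 1 other ZFP, in 10.6% with 2 to 3, in 3.92% with 4 to 6, in 6.16% with 7 to 10 and in 0.667% (0.0169 to 3.66) of the 150 shared with over 10. Of these 150, 90 were on DNA of repeated copies, and without them the word was in 1 of 60 (1.67%, 0.0422 to 8.94). Both lists gave the same order. In replicate 1 the word was within 200 bp of 13.2% of the peaks found in no other ZFP's list and of 4.01% of the others, and in replicate 2 of 17.2% and 4.87%. Over whole lists the order also held inside each place. Within 1 kb of a TSS the shares were 10.0% and 3.78% in replicate 1 and 11.8% and 3.76% in replicate 2, and beyond 1 kb they were 15.8% and 5.06%, and 21.2% and 9.54%. Among shared regions and within 100 bp, promoters showed little difference. The word was in 2 of the 62 called for CTCF alone (3.23%, 0.393 to 11.2) and in 3.04% of all promoter regions. These shares were 22.7% and 9.46% in introns, and 9.76% and 4.88% in intergenic DNA. The second share of each pair covers all shared regions of the place, including those called for CTCF alone.

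**Figure D5:**
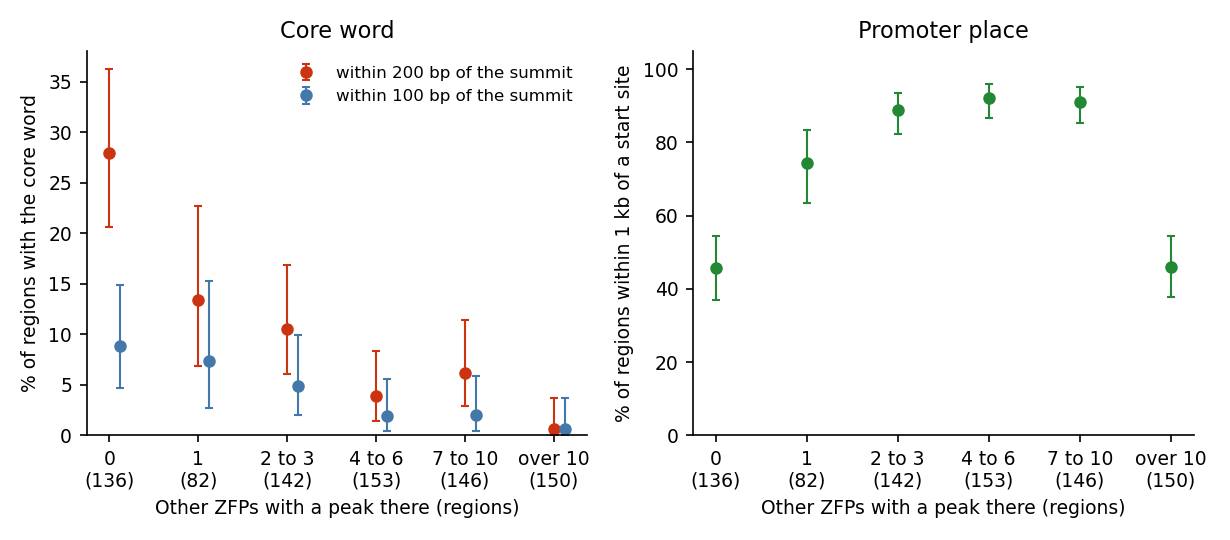
Left, share of shared CTCF regions (percent) with the strict core word within 200 bp (red) or 100 bp (blue) of the summit, and right, share within 1 kb of a TSS (percent), by the number of other ZFPs with a peak there (horizontal axis, number of regions in brackets); bars are exact 95% binomial intervals. The share with the word within 200 bp goes from 27.9% with no other ZFP to 0.667% with over 10, and the promoter share is 45.6% and 46.0% at the ends and up to 92.2% between them.

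Regions called for CTCF alone were also placed differently. Promoters made up 45.6% of them (37.0 to 54.3), and 92.2% (86.7 to 95.9) of those shared with 4 to 6 other ZFPs. Among regions shared with over 10, promoters made up 46.0%, and 70.0% when the regions of repeated copies were left out. Beside the ZNF775 exon and the AKR1E2 intron above, regions of high fold with no other ZFP were at CHPF, an enzyme of chondroitin synthesis, with folds of 10.2 and 10.2, at ENSG00000279708, a gene model not yet given a type, with 11.1 and 10.1, and the one near PSD2. The regions at CHPF and ENSG00000279708 had the strict word within 200 bp of the summit but not within 100 bp. A subtelomeric region of chromosome 18 at chr18:96703-97289, nearest to TUBB8B, had folds of 7.01 and 7.84, no other ZFP, and 3 copies of the core within 100 bp, the leftmost of which is printed above.

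The shared regions reached 612 of 20020 protein-coding genes within 1 kb of a TSS, 3.06% of them. Of the 11174 protein-coding genes with a peak of any ZFP there, 5.48% had a shared CTCF region. Among cohesin subunits and known partners of CTCF, 3 of 26 genes had one (11.5%). They were STAG1, a cohesin subunit, with folds of 3.70 and 6.29 and 2 strict words within 100 bp of the summit, ESCO1, which acetylates cohesin, with 11.2 and 5.09, and YY1, another factor of loops between enhancers and promoters, with 9.93 and 5.26. Ribosomal protein genes had 7 of 86 (8.14%), led by RPL26 and RPL5, the latter with 10.8 and 8.14. Splicing factor genes had 6 of 69 (8.70%), with SNRPD1 of the spliceosome core at 7.29 and 6.14. Immediate early genes had 2 of 40 (5.00%), SRF with 7.95 and 4.52 and GADD45A with 6.22 and 5.50. Replication-dependent histone genes had 2 of 69 (2.90%), and transcription machinery genes had 1 of 48 (2.08%), NELFA. Heat shock chaperone genes had 0 of 33. These counts are given beside the background, and no list was tested.

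Loci whose regulation by CTCF is textbook knowledge were looked up in the same way. Of 88 such protein-coding genes, among them the HOXA, protocadherin and imprinted genes, 1 had a shared region within 1 kb of a TSS (1.14%, against 3.06% of all protein-coding genes), which was HOXA4 with folds of 4.67 and 4.40. A peak of any ZFP lay there in 24 of the 88, and the 1 gene is 4.17% of these, against 5.48% over all genes. In a span of 100 kb around these genes there were also the IGF2 intron described above and the TSSC4 promoter near KCNQ1, with 6.41 and 6.08. None of these 3 regions held the strict word within 100 bp. At the depth of these lists, which the authors filtered at an FDR of 0.05 and which are not accompanied by read totals, the lack of a peak does not show that a site was unbound.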

How the data were processed

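The peak lists of 36 ZFPs with 2 replicates each were used, and mock IP lists were not analysed here. Samples were grouped by ZFP and replicate from their titles. Per the methods and labels, the authors trimmed reads (Trimmomatic 0.36), aligned fragments to hg38 (Bowtie2 2.3.5.1), removed duplicates (Picard 0.1.8) and called narrow peaks per library against the V5 mock IP of its batch (MACS2 2.2.7.1, FDR 0.05). The deposited fold is a ratio over the control, the deposited −log10 p and −log10 q are the authors', and the deposited score, not used for results, was derived by the peak caller from −log10 q. The lists carry no read counts, so the depth is unknown and list length is the measure of yield. How reads from repeated copies were treated, and which libraries formed a batch, was not stated in the sources used.

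Peaks were merged at 1 bp of overlap, placed with GENCODE 44 and searched for words with Python 3.11.15, pandas 2.3.3, numpy 2.4.6, scipy 1.17.1 and pysam 0.24.0, with figures from matplotlib 3.10.9. Regions that resemble CTCF or EEF1A1 exons were found with blastn 2.17.0+ (e-value 1e-05). Satellite-like means at least 5 ATTCC or GGAAT within 100 bp of the summit. Ribosomal DNA of chromosome 21 means within 20 kb of an annotated rRNA gene there. Shares carry exact (Clopper-Pearson) 95% binomial intervals. CTCF was compared with the other ZFPs by exact permutation tests over ZFPs with Benjamini-Hochberg adjustment over 5 tests. Overlap, distance, word search and the permutation test were tested on simulated data. The p-values measure the spread between ZFPs. Named regions are those of highest rank by the lower fold of the replicates: 8 promoter regions of protein-coding genes, 6 intronic, 6 intergenic, up to 8 with the strict word in each of promoter and other place, 6 with no other ZFP, the 5 called for most ZFPs (6 are given, since they tie), and members of the gene lists. Some regions that this rule takes are not reported here. Any other region in the text was picked with its values known. The members, gene lists and words were chosen with earlier results of these data known. Alternatives were stricter q-values, left-out replicates and ZFPs, other windows, words, distances and overlaps, a replicate block, and regions left out for resembling the plasmid or for repeated copies.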

Additional observations from a re-analysis of the deposited data

How the results depend on the processing

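The direction of the difference between CTCF and the other ZFPs was kept under every alternative run for 4 of the 5 measures. The exception was the share of the shorter list found in the other replicate. There the difference of CTCF from the mean of the others was 1.88 percentage points. It was -3.78 without the 6 ZFPs for which the authors list no number of Cut&Run target genes. These are CPSF4, MBNL1, SNRPC, TRIM55, ZC3H3 and ZMAT5. Without replicate 1 or replicate 2 of CTCF the difference in the strict word was 3.12 to 3.89 points over all peaks and 6.16 to 7.22 beyond 1 kb from a TSS. With a replicate block, in which labels were permuted over lists within a replicate number, the differences stayed at 3.501, 6.69 and 38.1 points for the word over all peaks, the word beyond 1 kb and the share near a TSS, and passed the threshold (adjusted p = 0.00386, 0.00386 and 0.0463 in exact permutation tests). Over the alternatives the adjusted p ranged from 0.00386 to 0.0833 for both word measures and from 0.0463 to 0.222 for the share near a TSS. Whether a replicate number marks a shared batch across ZFPs is not known, and this test treats the lists of a ZFP as independent.

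The number of shared regions fell from 809 to 502 with peaks of −log10 q of at least 3. The promoter share, 73.2%, became 68.5% with that threshold, 62.9% with protein-coding TSSs only, 76.9% within 2 kb and 79.0% without regions of repeated copies. The share with the strict word, 3.96%, became 2.35% within 50 bp of the summit, 9.89% within 200 bp, 9.52% over the whole region and 7.79% with the loose word. The share called for another ZFP, 83.2%, became 80.3% at −log10 q of at least 2, 75.9% at 3 and 49.1% when both replicates of the other ZFP had to have a peak. The limit of 200 bp, the sets without regions that resemble the plasmid or without repeated copies, and the share called for another ZFP without the libraries labelled U2AF1 were chosen after seeing the data. Leaving out 1 list gives no value for the overlap of replicates. The number of peaks per list limits each share.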

Other observations

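Within 200 kb of a chromosome end lay 23 of the 809 shared regions (2.84%), and 2 of these held the strict word within 100 bp of the summit. The region at DDX11L10 and DDX11L16, pseudogenes at the end of chromosome 16, was one of them, with folds of 5.91 and 12.9 and no other ZFP. In the shared promoter windows, ETS sites (CCGGAAG) were found in 7.77%, E-boxes (CACGTG) in 4.05%, AP-1 sites (TGANTCA) in 1.52%, NRF1 sites (GCGCATGCG) in 1.35%, TATA boxes (TATAAA) in 1.18%, YY1 sites (AAGATGGCG) in 1.01% and the cAMP response element (TGACGTCA) in 0.169%. In promoter regions of other ZFPs with no CTCF peak, with windows also centred on the summit, the same words were found in 5.66%, 5.39%, 2.25%, 1.16%, 1.46%, 0.903% and 0.695%. In windows placed by the TSS of all protein-coding genes they were found in 10.9%, 6.39%, 4.19%, 2.02%, 6.56%, 2.17% and 1.99%. The RAB13 promoter, with folds of 4.93 and 7.43, and the LINGO1 promoter, with folds of 4.60 and 6.50 and 2 copies of the word, were among the other regions with a strict core.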
